A study of Homo sapiens with 39 samples.

Results

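The comparison is between NEO2734 and OTX015, a pair of bromodomain inhibitors, in OCILy10 and TMD8, human diffuse large B cell lymphoma lines of the activated B cell type. It was chosen by the compound and line in each sample's own label and comprises 12 of the 39 RNA-seq libraries of the series, 3 of NEO2734 and 3 of OTX015 in each line. The 6 DMSO (vehicle) libraries of the same lines give the control level and complete the 18 libraries fitted here. All groups are labelled as treated for 6 h. Doses are not among the labels used here, so the compounds are not known to be at matched doses, and text that all samples share names other compounds and a longer treatment. Whether a group's 3 libraries are separate cultures is not in the labels, and p-values measure only the spread between these libraries.

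Bromodomains are protein modules that bind acetylated lysine. The BET proteins, among them BRD2 and BRD3, use them to hold transcription elongation machinery at acetylated enhancers and promoters, and OTX015 (birabresib) is known to block them. CREBBP (CBP) and EP300 (p300) are the acetyltransferases that write much of this enhancer acetylation and carry a bromodomain of their own, and NEO2734 is known to block the BET and the CBP/p300 bromodomains. Lymphomas of the activated B cell type are known for chronic B cell receptor and NF-kB signalling and for dependence on B cell transcription factors. The question is what the added CBP/p300 bromodomain inhibition changes beyond BET inhibition.

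Library totals in the 18 libraries ran from 1265383 to 11668542 counts and fell into 8 deep libraries (at least 6679540) and 10 shallow ones (at most 2514734). In TMD8 number 1 of each group was deep, and in OCILy10 number 1 of each group plus number 2 of DMSO and NEO2734. Depth within each line was therefore a term in the fit. Of 22 marker genes of the activated B cell type, 20 had higher DMSO means in both lines than in DOHH2 and Toledo. These are the other lines of the series, and Toledo DMSO replicate 2 was left out of its mean. Of 13 germinal centre-type markers, 6 had lower and 2 had higher means in both lines than in the other lines. The T cell and monocyte markers each had 2 of 5 genes in the table, with summed levels in the NEO2734 and OTX015 libraries of at most 8.58 and 4.89 CPM (counts scaled to library size by the TMM method), while the T cell sum reached 79.4 CPM in the DMSO libraries. The fibroblast and epithelial markers, 3 of 6 in the table, summed to 3.15 to 33.8 CPM with NEO2734 and 3.75 to 36.4 with OTX015.

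In edgeR's main test no gene differed past the threshold between NEO2734 and OTX015 over both lines. Among genes lower with NEO2734, the lowest p belonged to CBFA2T3, a corepressor, PAX5, the B cell identity factor, TRERF1, a zinc finger factor, PIK3CD, a kinase of the B cell receptor pathway, and TNFRSF13B, a receptor of B cell survival factors. Averaged over the lines, 0 of 11824 genes tested (0%) had an adjusted p under 0.05 for NEO2734 against OTX015 in edgeR's quasi-likelihood test. The lowest adjusted p, 0.0593, was shared by genes that include CBFA2T3 and MACC1. At an unadjusted p under 0.05 there were 329 lower genes (2.78%) and 331 higher genes (2.8%). limma-voom likewise called 0 genes, and DESeq2 called 24 of the 9990 genes to which it gave an adjusted p (0.24%), of which 18 were lower and 6 higher. With the replicate number as a block in both lines, although the OCILy10 numbers were not taken as pairs, edgeR called 70 (0.592%), 60 lower and 10 higher. The 95% interval of the difference lay within 2-fold in either direction for 9609 genes (81.3%). For the remaining genes the interval reached past 2-fold.

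Against DMSO, which both compounds share, NEO2734 changed 2940 genes (24.9%) and OTX015 changed 1529 (12.9%) in edgeR's test. With NEO2734 1414 genes rose (12%) and 1526 fell (12.9%), and with OTX015 650 rose (5.5%) and 879 fell (7.43%). These counts use the same DMSO libraries, and a gene called with only one compound is not thereby shown to differ between them. They also depend on the handling of depth: without a depth term they were 1065 and 394. The deep libraries alone do not repeat OTX015 in either line, so no counts are given for them.

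The genes known to report BET inhibition moved with both compounds. HEXIM1 (ENSG00000186834.3, chr17:45148502-45152101), an inhibitor of the elongation factor P-TEFb and a usual marker of BET inhibition, had 35.6, 40.8 and 75.1 CPM in the DMSO libraries of OCILy10, 108, 125 and 252 with OTX015 and 110.1, 130, and 233 with NEO2734. In TMD8 it had 44.6, 57.3 and 70.0 CPM with DMSO, 118, 227 and 319 with OTX015 and 149, 326 and 386 with NEO2734. Every treated library lay above every DMSO library of its line, and the ranges of the compounds overlapped. HEXIM1 rose by 1.93 on the log2 scale with NEO2734 (adjusted p 4.92e-07) and by 1.63 with OTX015 (adjusted p 9.82e-06), and the difference between the compounds was 0.30 ± 0.16 (SE; edgeR adjusted p 0.885), with a 95% interval of -0.04 to 0.63.

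Over the 15 tested BET inhibition markers, 12 rose and 2 fell with NEO2734, and 10 rose and 2 fell with OTX015. Of all genes 12% rose and 12.9% fell with NEO2734, and 5.5% rose and 7.43% fell with OTX015. The median difference of NEO2734 from OTX015 over these 15 was 0.30 on the log2 scale, against 0.01 over all genes, with 0 of 15 called by edgeR. The marker with the lowest unadjusted p was TXNIP, an inhibitor of thioredoxin and of glucose uptake, at 0.55 ± 0.17 (adjusted p 0.574). Its level was 60.4, 59.8 and 66.5 CPM with OTX015 and 85.1, 84.4 and 124 with NEO2734 in OCILy10, where the groups were apart, and 260, 234 and 211 against 432, 287 and 247 in TMD8, where they overlapped. DHRS2, a short-chain dehydrogenase, rose by 4.32 with NEO2734 and by 3.93 with OTX015. MYC, the growth-promoting transcription factor, fell by 1.97 with NEO2734 and by 1.32 with OTX015, and the difference between the compounds was -0.64 ± 0.28 (adjusted p 0.87). The 18 tested histone genes, whose polyadenylated transcripts are known to rise when BET proteins are blocked, had a median difference between compounds of 0.27 (0.16 in the deep libraries alone, 0.60 in the shallow ones) with 0 called by edgeR. Against DMSO 16 rose with NEO2734 and 14 with OTX015, where 12% and 5.5% of all genes rose.

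**Figure D1:**
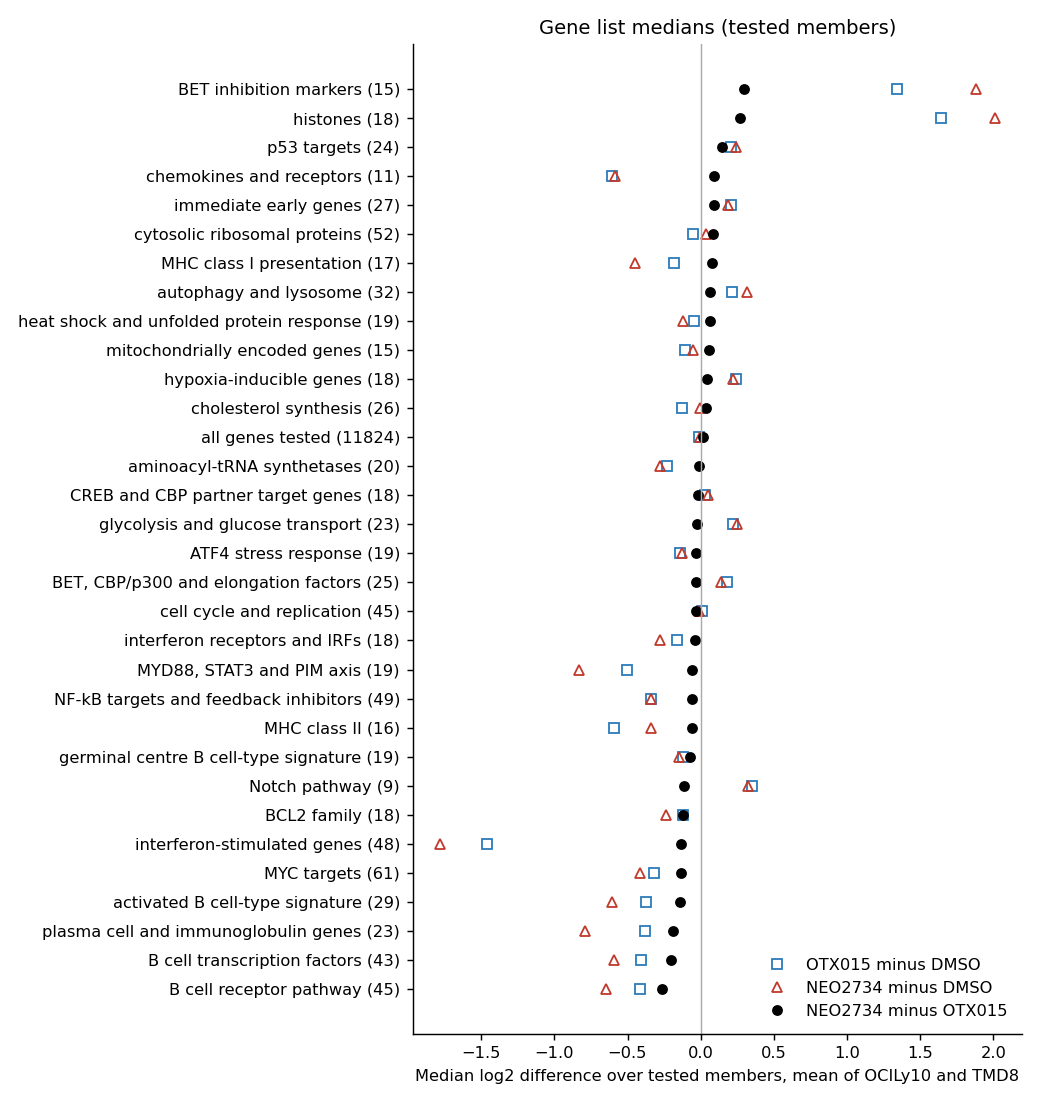
Median log2 difference over the tested members of each gene list (number of members in brackets), averaged over OCILy10 and TMD8, for OTX015 minus DMSO (squares), NEO2734 minus DMSO (triangles) and NEO2734 minus OTX015 (dots). The dots range from -0.26 for the B cell receptor pathway to 0.30 for BET inhibition markers, and the interferon-stimulated genes lie far below 0 for both compounds.

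Negative differences outnumbered positive ones among the B cell transcription factors. Of the 43 tested, edgeR called 0 and DESeq2 called 4, CBFA2T3, PAX5, IKZF1 and IKZF3. In edgeR's test 13 were lower and 0 higher with NEO2734 at an unadjusted p under 0.05 (30.2%, against 2.78% of all genes for lower), and the median difference was -0.21. This list was chosen with earlier results of these data known, so its excess over all genes is not an independent result. The difference was negative in both lines for 24 of 43, against 28.2% of all genes. The median was -0.13 in the deep libraries alone and -0.27 in the shallow ones, and was negative under 34 of 34 other settings. Against DMSO, 23 of 43 fell and 4 rose with NEO2734, where 12.9% of all genes fell and 12% rose. With OTX015 16 fell and 1 rose, against 7.43% and 5.5% of all genes.

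CBFA2T3 (ENSG00000129993.13, chr16:88874858-88977204) encodes a transcriptional corepressor of the ETO family. In OCILy10 it had 22.6, 26.7 and 50.1 CPM with DMSO, 11.2, 9.32 and 24.0 with OTX015 and 5.44, 2.53 and 8.87 with NEO2734. In TMD8 it had 46.1, 55.6 and 71.9 CPM with DMSO, 25.9, 48.3 and 36.4 with OTX015 and 10.2, 15.4 and 19.03 with NEO2734. All NEO2734 libraries lay below all OTX015 libraries of their line. The level with NEO2734 was 0.412 of that with OTX015, a log2 difference of -1.28 ± 0.21 with a 95% interval of -1.73 to -0.83 (edgeR adjusted p 0.0593). CBFA2T3 fell by 2.28 against DMSO with NEO2734 (adjusted p 7.98e-07) and by 1.00 with OTX015 (adjusted p 0.00241). The difference between the compounds was -1.39 in the deep libraries alone and -1.13 in the shallow ones, and DESeq2 gave -1.29 (adjusted p 4.64e-05).

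PAX5 (ENSG00000196092.11, chr9:36833275-37034185) encodes the factor that sets and keeps B cell identity. In OCILy10 it had 124, 90.9 and 128 CPM with OTX015 and 70.8, 71.2 and 79.9 with NEO2734, and the DMSO libraries had 229, 342 and 359. In TMD8 it had 292, 218 and 264 CPM with OTX015 and 135, 100.3 and 157 with NEO2734, and the DMSO libraries had 636, 518 and 762. In both lines the DMSO, OTX015 and NEO2734 libraries formed 3 levels without overlap. The log2 difference between the compounds was -0.80 ± 0.15 with a 95% interval of -1.12 to -0.48 (edgeR adjusted p 0.173, DESeq2 adjusted p 0.0107), and PAX5 fell by 2.18 against DMSO with NEO2734 and by 1.38 with OTX015.

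The stretches before the start sites of PAX5 and CBFA2T3 are shown because these members of the list were apart in every library. They are 250 bases upstream of the RefSeq start site nearest the gene's annotated start, from GRCh38.p14, on the minus strand and free of annotated exons, at chr9:37034269-37034518 and chr16:88941351-88941600. The CBFA2T3 stretch lies within the span of the longer annotated gene. Capitals mark matches to the NF-kB motif on either strand, which overlap one another in CBFA2T3.
PAX5: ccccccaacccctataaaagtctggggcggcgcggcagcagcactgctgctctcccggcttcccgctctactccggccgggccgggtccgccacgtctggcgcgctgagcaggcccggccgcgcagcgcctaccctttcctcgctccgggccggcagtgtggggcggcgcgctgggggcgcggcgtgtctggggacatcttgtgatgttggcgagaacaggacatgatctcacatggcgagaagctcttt
CBFA2T3: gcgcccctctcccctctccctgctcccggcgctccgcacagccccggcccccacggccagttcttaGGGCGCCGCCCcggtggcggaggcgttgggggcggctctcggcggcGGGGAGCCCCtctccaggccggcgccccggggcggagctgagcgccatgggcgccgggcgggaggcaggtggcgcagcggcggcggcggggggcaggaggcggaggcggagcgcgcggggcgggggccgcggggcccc
The motif was found in windows of 300 bases (250 before to 50 after the start) of 23 of 35 B cell transcription factors with a window (65.7%) and in 72.8% of the windows of 8992 tested genes. The cyclic AMP response element TGACGTCA, a site of CREB, the factor after which CBP was named, was in 1 of these 35 windows (2.86%) and in 3.43% of those of tested genes. The AP-1 motif TGANTCA was in 1 of 35 (2.86%) against 3.9%, the E-box CACGTG in 0 of 35 against 10.5%, and the interferon-stimulated response element in 1 of 35 (2.86%) against 3.16%.

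POU2AF1 (ENSG00000110777.10, chr11:111352252-111455630) encodes OCA-B, the B cell coactivator of octamer-binding factors. In OCILy10 it had 105, 204 and 128 CPM with OTX015 and 84.6, 57.8 and 71.0 with NEO2734, and in TMD8 33.6, 36.4 and 83.6 with OTX015 and 23.1, 22.7 and 30.1 with NEO2734. The groups were apart in both lines, and the log2 difference was -0.84 ± 0.23 (edgeR adjusted p 0.435). It was -0.54 in the deep libraries alone and -1.23 in the shallow ones. IKZF1 (ENSG00000185811.15, chr7:50304068-50405101) encodes Ikaros, a zinc finger factor of lymphoid development. It had 221, 264 and 201 CPM with OTX015 and 148, 240 and 129 with NEO2734 in OCILy10, and 322, 210 and 214 against 205, 101 and 144 in TMD8. The groups overlapped in OCILy10 and were apart in TMD8, and the log2 difference was -0.63 ± 0.15 (adjusted p 0.281).

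The other members below an unadjusted p of 0.05, picked out after their values were seen, were CIITA, the activator of MHC class II genes (-0.63 ± 0.15), IKZF3 or Aiolos (-0.48), BCL11A (-0.65), ZHX2 (-0.65), TCF4 (-0.39), MYB (-0.66), POU2F2, which encodes the octamer factor Oct-2 (-0.31), EBF1, an early B cell factor (-0.51), and AFF3 (-0.35). Their edgeR adjusted p ran from 0.331 to 0.867, and none passed in edgeR's main test, while DESeq2 gave IKZF3 an adjusted p of 0.0489. With the replicate block edgeR called CIITA, IKZF3 and BCL11A. CIITA and IKZF3 fell against DMSO with both compounds, by 1.46 and 1.30 with NEO2734 and by 0.83 and 0.82 with OTX015. POU2F2 was at -0.31 against DMSO with NEO2734 (adjusted p 0.0713) and at -0.01 with OTX015 (adjusted p 0.998). IRF4, the factor on which activated B cell-type lines depend, fell by 0.88 with NEO2734 and by 0.81 with OTX015, and the difference between the compounds was -0.07 ± 0.18 with a 95% interval of -0.45 to 0.30. BACH2, a repressor of plasma cell differentiation, had the highest fitted value, which rests on 14 counts with NEO2734 against 2 with OTX015 in TMD8, and in OCILy10 it was at -0.33.

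**Figure D2:**
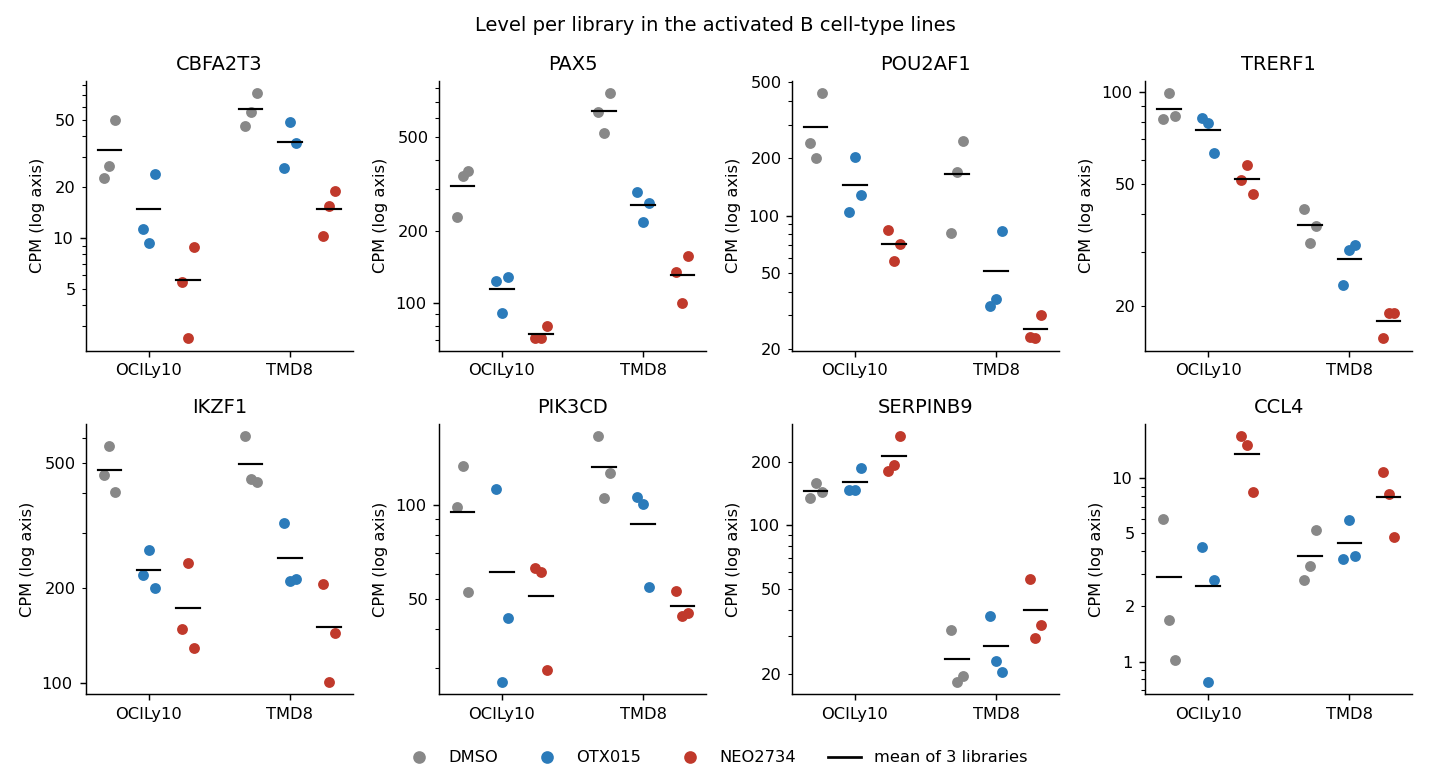
Level of 8 genes in each library (points, CPM on a log axis) with DMSO, OTX015 and NEO2734 in OCILy10 and TMD8, and the mean of 3 libraries (bars). The NEO2734 points of CBFA2T3, PAX5, POU2AF1 and TRERF1 lie below all OTX015 points in both lines, and those of SERPINB9 overlap them.

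B cell receptor pathway genes had mostly negative differences, with 0 called by edgeR and 2, PIK3CD and PTPN6, by DESeq2. Of 45 tested, 10 were lower and 0 higher at an unadjusted p under 0.05 (22.2%, against 2.78% of all genes for lower). This list, too, was chosen with earlier results of these data known, and its excess is not an independent result. The difference was negative for 39 (against 47.4% of all genes) and in both lines for 35 (against 28.2%), and the median was -0.26 (-0.26 in the deep libraries alone, -0.31 in the shallow ones). With NEO2734 28 of 45 fell and 4 rose against DMSO, where 12.9% of all genes fell and 12% rose. With OTX015 17 fell and 3 rose, against 7.43% and 5.5% of all genes. The lowest p was that of PIK3CD (ENSG00000171608.14, chr1:9651732-9729114), the catalytic PI3 kinase subunit of leukocytes. It had 113, 27.2 and 43.6 CPM with OTX015 and 62.8, 61.2 and 29.6 with NEO2734 in OCILy10, where the groups overlapped, and 106, 101 and 54.6 against 53.1, 44.0 and 45.2 in TMD8, where they were apart. Its log2 difference was -0.74 ± 0.16 (edgeR adjusted p 0.281, DESeq2 adjusted p 0.0244). In OCILy10 the first OTX015 library was deep and the others shallow, and the difference there, with depth in the fit, was -0.61.

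PTPN6 (ENSG00000111679.15, chr12:6946468-6961316) encodes SHP-1, a phosphatase that restrains B cell receptor signalling. It had 435, 347 and 165 CPM with OTX015 and 388, 275 and 148 with NEO2734 in OCILy10, and 101, 221 and 259 against 61.1, 121 and 167 in TMD8. The groups overlapped in both lines, and the NEO2734 library was the lower one in each same-numbered TMD8 pair. The log2 difference was -0.66 ± 0.16 (edgeR adjusted p 0.341, DESeq2 adjusted p 0.049), with -0.63 against DMSO for NEO2734 (adjusted p 0.0071) and 0.04 for OTX015 (adjusted p 0.923). SYK, the kinase directly downstream of the receptor, had a difference of -0.51 ± 0.14 (adjusted p 0.478), and VAV2, a guanine nucleotide exchange factor, one of -0.46 ± 0.14 (adjusted p 0.551). VAV2 fell by 0.45 with NEO2734 (adjusted p 0.0197) and was at 0.01 with OTX015 (adjusted p 0.995). The inhibitory receptors CD22 and CD72 were at -0.53 and -0.70. The highest member was FYN, a Src family kinase, at 0.66 ± 0.32 (adjusted p 0.881).

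**Figure D3:**
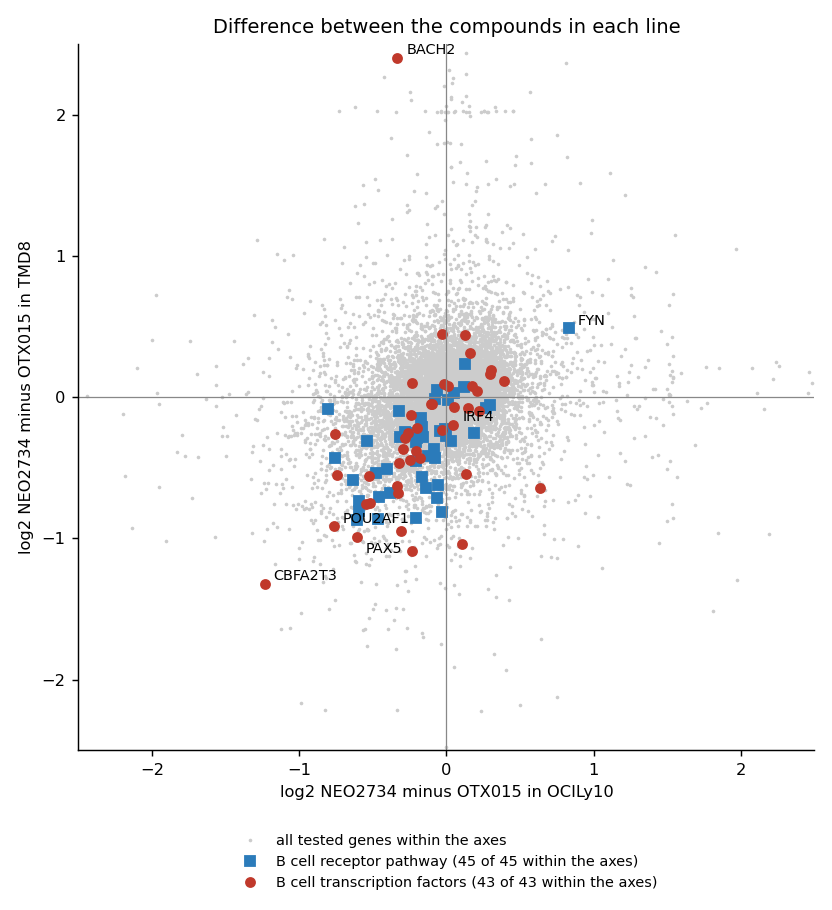
NEO2734 minus OTX015 (log2) in OCILy10 on the x axis and in TMD8 on the y axis, for B cell transcription factors (circles), B cell receptor pathway genes (squares) and the other tested genes (grey), with 11699 genes inside the axes. CBFA2T3, PAX5 and POU2AF1 are negative in both lines, at -1.24, -0.61 and -0.77 in OCILy10 and -1.32, -0.99 and -0.91 in TMD8.

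Among genes of plasma cell and activated B cell-type programmes, the receptors of the BAFF system had negative differences that did not pass in edgeR's test. TNFRSF13B, which encodes the receptor TACI, had 135, 615 and 394 CPM with OTX015 and 89.2, 106 and 238 with NEO2734 in OCILy10, and 40.3, 170.3 and 232 against 20.2, 141 and 160.1 in TMD8. Levels varied widely within groups and overlapped between them, the NEO2734 library was the lower one in each same-numbered TMD8 pair, and the difference was -0.67 ± 0.15 (edgeR adjusted p 0.281, DESeq2 adjusted p 0.0244). TNFRSF13C, the BAFF receptor, was at -0.62 ± 0.17 (adjusted p 0.478), and IL21R, the receptor of interleukin 21, at -0.64 ± 0.18 (adjusted p 0.478). Of 29 activated B cell-type signature genes 5 were lower and 0 higher at an unadjusted p under 0.05 (against 2.78% of all genes for lower), with a median of -0.14.

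All 3 NEO2734 libraries lay below all 3 OTX015 libraries in both lines for 17 genes (0.144%) and above them for 15 (0.127%). This rule is not a test, and meeting it does not by itself show that a gene differs. The 17 include 4 of the 43 B cell transcription factors, CBFA2T3, PAX5, POU2AF1 and AFF3. The others, named here because they met this rule, include TRERF1, LRRK2, BCL7A, EMB and GALNT7. TRERF1 (ENSG00000124496.11, chr6:42224931-42452051), a zinc finger factor known to bind CBP/p300, had 82.2, 79.2 and 63.1 CPM with OTX015 and 51.6, 57.8 and 46.5 with NEO2734 in OCILy10, and 23.5, 30.5 and 31.6 against 15.7, 19.1 and 19.03 in TMD8. Its difference was -0.62 ± 0.13 (edgeR adjusted p 0.257). TRERF1 fell by 0.93 with NEO2734 (adjusted p 3.99e-05) and was at -0.30 with OTX015 (adjusted p 0.119). BCL7A, a subunit of the SWI/SNF remodelling complex, was at -0.50 ± 0.11 (adjusted p 0.281), with -0.39 against DMSO for NEO2734 (adjusted p 0.0144) and 0.11 for OTX015 (adjusted p 0.554). The kinase LRRK2 was at -0.52 ± 0.13 (adjusted p 0.331).

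Among genes higher with NEO2734, edgeR called none, and after MACC1 and XIST, which are described with TMD8, the lowest p was that of SERPINB9 (ENSG00000170542.5, chr6:2887266-2903280), an inhibitor of granzyme B, which had 146, 146 and 186 CPM with OTX015 and 181, 193 and 262 with NEO2734 in OCILy10, and 37.5, 23.1 and 20.4 against 56.0, 29.5 and 34.1 in TMD8. The groups overlapped, the NEO2734 library was the higher one in each same-numbered TMD8 pair, and the difference was 0.51 ± 0.11 (edgeR adjusted p 0.281, DESeq2 adjusted p 0.0433). SERPINB9 rose by 0.64 with NEO2734 (adjusted p 0.000454) and was at 0.13 with OTX015 (adjusted p 0.521). CCL4 (ENSG00000275302.1, chr17:36103590-36105621), a chemokine gene with a near-identical copy that may share its reads, had 4.22, 0.777 and 2.79 CPM with OTX015 and 16.9, 15.2 and 8.45 with NEO2734 in OCILy10, where the groups were apart. In TMD8 it had 3.64, 5.95 and 3.75 against 10.9, 8.17 and 4.76, which overlap. Its difference was 1.51 ± 0.34 (edgeR adjusted p 0.281, DESeq2 adjusted p 0.0452), and it rose by 1.72 with NEO2734 (adjusted p 0.000723) and was at 0.21 with OTX015 (adjusted p 0.762). CSRNP2, a nuclear protein of the cysteine-serine-rich family, was at 0.47 ± 0.11 (edgeR adjusted p 0.281, DESeq2 adjusted p 0.0244), and RGS2, a regulator of G protein signalling and a CREB target, at 0.51 ± 0.14 (adjusted p 0.478). SERPINE2, a serine protease inhibitor, had all NEO2734 libraries above all OTX015 libraries in both lines, at 0.55 ± 0.19 (adjusted p 0.706), and rose against DMSO with both compounds, by 2.38 and 1.82.

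Other programmes tied to CBP/p300 or to these lymphomas had 0 genes called by edgeR between the compounds. Interferon-stimulated genes fell with both compounds, 40 of 48 with NEO2734 (median -1.78) and 38 of 48 with OTX015 (median -1.46), against 12.9% and 7.43% of all genes. Their median difference between the compounds was -0.13, with 0.01 in OCILy10 and -0.32 in TMD8. MYC target genes fell in 34 of 61 with NEO2734 and 17 of 61 with OTX015, against 12.9% and 7.43% of all genes. Their median difference was -0.13, with -0.06 in the deep libraries alone and -0.26 in the shallow ones. NF-kB target genes, of which DESeq2 called CCL4, had a median of -0.06 over 49. This average joins medians of opposite sign, 0.176 in OCILy10 and -0.175 in TMD8. The 18 tested target genes of CREB and of other CBP partners had a median difference of -0.02, with RGS2 and NFIL3 higher at an unadjusted p under 0.05. The 27 immediate early genes had one of 0.09 with 0 at an unadjusted p under 0.05, the 24 p53 targets one of 0.15 and the 16 MHC class II genes one of -0.06. Ribosomal protein and mitochondrially encoded genes had medians of 0.09 and 0.05, with 0 of 52 and 0 of 15 at an unadjusted p under 0.05.

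Transcripts of 4 of the compounds' own targets had intervals within 1.5-fold in either direction. CREBBP was at -0.05 ± 0.12 with a 95% interval of -0.31 to 0.20, EP300 at -0.07 ± 0.11, BRD2 at 0.08 ± 0.09 and BRD3 at -0.17 ± 0.14. Of 25 BET, CBP/p300 and lymphoma genes read in every comparison, 20 had an interval that included 0, 21 had one within 2-fold and 13 one within 1.5-fold in either direction. PRDM1, which encodes the plasma cell factor Blimp-1, was at -0.26 ± 0.19, BCL6, the germinal centre repressor, at 0.13 ± 0.15, and CCND2, which encodes cyclin D2, at -0.41 ± 0.25. BCL2, the survival factor, was at -0.25 ± 0.12.

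**Figure D4:**
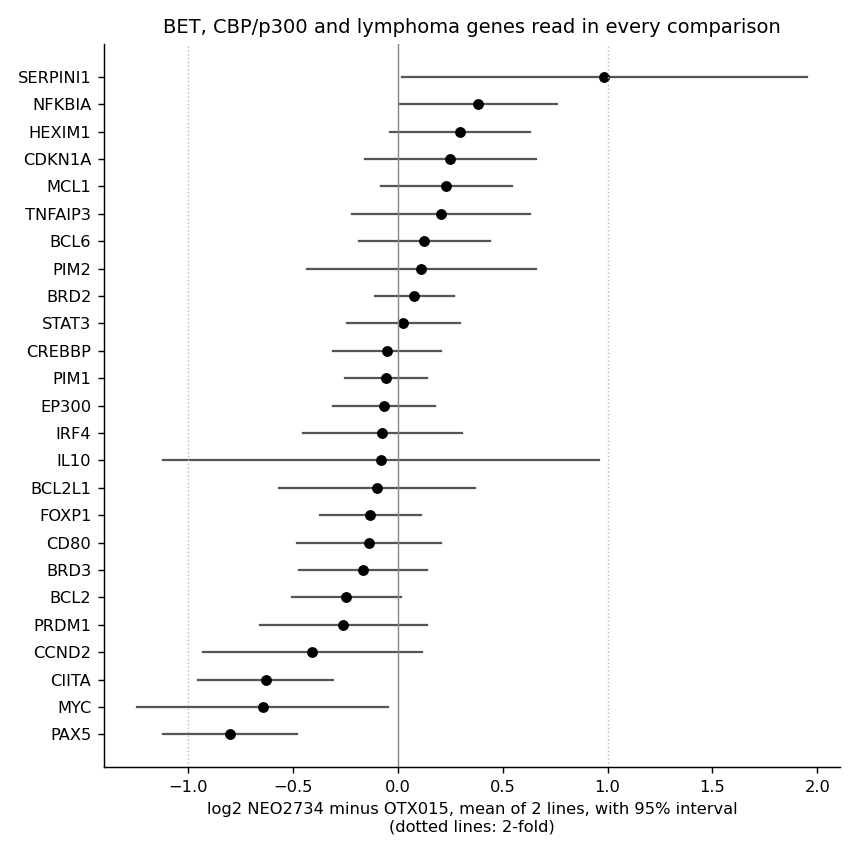
NEO2734 minus OTX015 (log2, mean of both lines) with its 95% interval for 25 BET, CBP/p300 and lymphoma genes, with dotted lines at 2-fold. The intervals of PAX5, CIITA and MYC lie below 0 and those of SERPINI1 and NFKBIA above it, with none of these past an adjusted p of 0.05 in edgeR's main test. DESeq2 called PAX5, and edgeR with the replicate block called PAX5 and CIITA.

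Within OCILy10 alone, edgeR called 0 genes (0%), with 313 at an unadjusted p under 0.05, and DESeq2 and limma-voom called 0 as well. Within TMD8 alone edgeR called 2 (0.0169%), MACC1 and the noncoding gene XIST, both higher with NEO2734. DESeq2 called 3 there, XIST, CBFA2T3 and SHROOM2, and limma-voom called 0. MACC1 (ENSG00000183742.11, chr7:20134655-20217404), a regulator of MET known from colon cancer, had 1.74, 1.11 and 1.43 CPM with DMSO, 0.126, 0 and 0 with OTX015 and 2.43, 0.908 and 0.793 with NEO2734. This is 26 counts against 1, a ratio of 22.4 with a 95% exact counting interval of 3.69 to 920.0 (edgeR adjusted p 0.0427). MACC1 was at 43.0 to 83.2 CPM with OTX015 in OCILy10. Over 105 genes that OCILy10 expressed and TMD8 nearly lacked, TMD8 libraries held 2.34, 1.01 and 1.06% of the OCILy10 DMSO level with NEO2734, 0.744, 0.731 and 0.61% with OTX015 and at most 0.635% with DMSO. The part of this in the MACC1 and XIST results was not tested. Without the first TMD8 NEO2734 library edgeR called 0 genes in TMD8, with 275 at an unadjusted p under 0.05, and it called 0 in 10 of the 18 fits that left out 1 library.

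In TMD8 same-numbered NEO2734 and OTX015 libraries deviated together, with depth not removed. The labels do not state that they are pairs. With the replicate number as a block edgeR called 20 genes (0.169%) in TMD8, 17 lower and 3 higher with NEO2734. This fit also blocked OCILy10, whose numbers were not taken as pairs, and the lines shared its estimate of the spread. They included PAX5 (-1.003 ± 0.14, adjusted p 0.00235), PTPN6 (-0.74 ± 0.11, adjusted p 0.00571), CBFA2T3 (-1.32 ± 0.23, adjusted p 0.0162) and IKZF1 (-0.75 ± 0.13, adjusted p 0.0183). The others named here, chosen after their values were seen, were IQSEC1, an exchange factor of ARF6 (-1.30 ± 0.14), TNS3, a focal adhesion tensin (-1.02 ± 0.13), ZMIZ1, a transcriptional coactivator (-1.03 ± 0.16), SIGLEC6, a sialic acid-binding receptor (-1.004 ± 0.16), and TCL1A, a coactivator of AKT (-0.81 ± 0.14). IQSEC1 had 106, 72.9 and 124 CPM with OTX015 and 37.5, 30.4 and 59.5 with NEO2734, and TCL1A had 386, 266 and 309 against 197, 118 and 254. The groups were apart for both genes, narrowly for TCL1A. In TMD8 24 of the 43 B cell transcription factors and 28 of the 45 B cell receptor pathway genes were lower with NEO2734 in all 3 same-numbered pairs, against 14.6% of all genes. Both lists were chosen with earlier results of these data known.

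The test of a difference between the lines in how the compounds compared passed for 1 gene in edgeR's test (0.00846%), XIST, with 175 at an unadjusted p under 0.05. The next lowest p were those of MACC1 (adjusted p 0.105), PNMA8A (0.542), and GBP2 and DSG2 (both 1). Of the 20 genes with the lowest p for this difference, 17 were at least 20-fold higher in OCILy10 than in TMD8 with DMSO, against 310 of the 11824 tested. The OCILy10 and TMD8 contrasts share no library, and across the 11824 genes, which are not independent replicates, they had Spearman's rho 0.262, Pearson's r 0.0804 and the same sign for 59.5%. Among the 313 genes at an unadjusted p under 0.05 in OCILy10, 79.9% had the same sign in TMD8, with Spearman's rho 0.495 and Pearson's r -0.179. For CBFA2T3 the difference was -1.24 in OCILy10 and -1.32 in TMD8, and for CIITA -0.31 and -0.95, with an adjusted p of 1 for the difference between lines in both.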

How the data were processed

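RNA-seq libraries of OCILy10 and TMD8 treated with DMSO, OTX015 or NEO2734 for 6 h, 3 of each, were grouped by each sample's own title. The authors deposited whole-number read counts per gene for 15808 versioned gene IDs, and a second table, named as normalised, holds the same counts in all 18 of these columns. STAR, edgeR and hg38 are named in the submitters' processing notes. Versions, the counting program and strandedness: not given in the sources used here. Overlapping genes on opposite strands may therefore share reads. Symbols were matched for 15590 IDs, and positions are from GENCODE 29 on GRCh38. Counts were fitted with edgeR 4.0.16 in R 4.3.3 (TMM, quasi-likelihood F-test, filterByExpr, 11824 genes), with 6 group coefficients, a depth term (over or under 5000000 counts) within each line and 10 residual degrees of freedom. Benjamini-Hochberg adjustment ran over all tested genes, called means an adjusted p under 0.05, and ± is an SE. The code was tested on simulated counts. DESeq2 1.42.0, limma 3.58.1 (voom) and other settings were alternatives.

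Named genes were the 5 lowest p in each direction, the genes called within a line, the 5 lowest p between lines, up to 3 called members a list and 25 genes read everywhere, and some items are not reported here. Members and lists, written from textbook knowledge, were chosen with earlier results of these data known. TMD8 numbers were taken to pair NEO2734 with OTX015, which the labels do not state. Deviations from group means of same-numbered libraries correlated at 0.913, 0.759 and 0.76 over 8529 genes. Depth was not removed from these deviations, and number 1 is the deep library of each TMD8 group. Numbers 2 and 3, which are shallow, also correlated best with their own number. The part of depth was not tested. Counting intervals cover counting error only.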

Additional observations from a re-analysis of the deposited data

How the results depend on the processing

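For NEO2734 against OTX015 over both lines, 0 genes were called under most alternatives. DESeq2 called 24, the fit without a filter on low counts 2, and the fit without OCILy10 number 2 libraries, chosen after seeing the data, 6. A replicate block called 70 over both lines, 8 in OCILy10, 20 in TMD8, 3 for the difference between lines and 3371 for OTX015 against DMSO. Same-numbered OCILy10 libraries of NEO2734 and OTX015 correlated at 0.792, -0.528 and 0.683, so those numbers were not taken as pairs, since not every pair passed 0.1. The libraries of the second pair differ in depth. DESeq2 and the block shared 21 genes, 16 lower and 5 higher, with CBFA2T3, PAX5 and IKZF1 among the lower. In TMD8 DESeq2 called 3 genes, and the fit without OCILy10 number 2 libraries also called 3. The 2 calls of edgeR's main test in TMD8 became 1 with library totals, DESeq2 size factors, upper quartile scaling, no filter or 1 CPM in 6 libraries. They became 0 with limma-voom, no depth term, a shared depth term, the 12 compound libraries alone or all 39 libraries. These settings also took the 1 call for the difference between lines to 0. Leaving out genes 20-fold apart between the lines gave 0 for both as well, but removes MACC1 itself. XIST, like MACC1, had values in only 33 of 34 settings. The 0 calls there are therefore not read as instability. NEO2734 against DMSO went from 2940 to 1065 without a depth term, 360 in deep and 236 in shallow libraries, and OTX015 against DMSO from 1529 to 394, 0 and 70.

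Leaving out each library in turn gave 0 to 2 calls over both lines, 0 in OCILy10, 0 to 2 in TMD8 (0 in 10 of 18 fits), 0 to 1 between lines, 2201 to 3253 for NEO2734 and 671 to 1943 for OTX015 against DMSO. The OTX015 count was 671 without OCILy10 OTX015 replicate 1, 931 without TMD8 OTX015 replicate 1 and 1005 without OCILy10 DMSO replicate 3. The cause was not tested. Signs were followed only for the mean over both lines, where edgeR's main test called 0 genes. There 68 of 203 gene differences and list medians changed sign under at least 1 alternative. The 10 shallow libraries limit what weakly expressed genes can show. The deep libraries alone repeat only for DMSO and NEO2734 in OCILy10, and OTX015 is not repeated among them in either line. The comparisons with DMSO could not be made with the 12 compound libraries alone.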
